A study of Mus musculus with 12 samples.

Results

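The 10 genes described here carry, store and regulate iron in macrophages: Hamp, Slc40a1, Cp, Tfrc, Slc11a2, Slc11a1, Fth1, Ftl1, Ireb2 and Lcn2. They were taken from a list of symbols and found on the arrays through the RefSeq accession that the array design gives for each probe. This gave 15 probes for the 10 genes, out of 20883 genes with a named probe, and all 10 were among the 13166 genes tested. RNA was measured in peritoneal macrophages of wild-type C57BL/6 mice on 12 one-colour Agilent arrays, 4 in each of 3 groups. The series title asks whether emodin, a plant anthraquinone, inhibits classical (inflammatory) activation of macrophages.

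Cells were left to attach for 2 hours, kept without serum until the next day and then treated for 20 hours. The control group received vehicle and came from mice aged 8 weeks, 2 arrays labelled female and 2 labelled male. The LPS_IFNg group received lipopolysaccharide (LPS, from bacterial cell walls) at 100 ng/ml with interferon gamma (IFNγ) at 20 ng/ml, and came from mice aged 9 weeks labelled female. The LPS_IFNg_emodin group, also from mice aged 9 weeks labelled female, received the same LPS and IFNγ with emodin at 50 μM. Nothing in the labels ties an array to an animal, so the tests below set differences against the spread among arrays only, which may be technical. The series has no group given emodin alone.

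Macrophages take iron from old red cells and return it to the blood through ferroportin, the only known iron exporter of mammalian cells, which Slc40a1 encodes. Hepcidin, the peptide made from Hamp, binds ferroportin and causes its breakdown, so that iron stays in the cell. Most hepcidin comes from the liver, where bone morphogenetic protein (BMP) signals through SMAD proteins and interleukin 6 through STAT3 raise its transcription, but activated macrophages can make it as well. Inside the cell, ferritin stores iron and the iron regulatory proteins bind ferritin and transferrin receptor messages according to the iron supply.

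The sequence before the start of Hamp is shown because this gene had the largest contrast between groups among the 10, and that before the inner start of Cp because Cp moved strongly in 2 comparisons. Both are the 250 bases before a RefSeq start site on GRCm38.p6, read 5′ to 3′ on the strand of the gene: chr7:30944030-30944279 on the minus strand for Hamp and chr3:19956999-19957248 on the plus strand for Cp.
Hamp: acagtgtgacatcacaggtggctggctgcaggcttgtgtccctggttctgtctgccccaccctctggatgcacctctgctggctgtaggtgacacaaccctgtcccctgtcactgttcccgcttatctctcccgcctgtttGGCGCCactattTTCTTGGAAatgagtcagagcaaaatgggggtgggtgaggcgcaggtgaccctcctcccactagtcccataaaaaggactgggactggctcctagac
Cp: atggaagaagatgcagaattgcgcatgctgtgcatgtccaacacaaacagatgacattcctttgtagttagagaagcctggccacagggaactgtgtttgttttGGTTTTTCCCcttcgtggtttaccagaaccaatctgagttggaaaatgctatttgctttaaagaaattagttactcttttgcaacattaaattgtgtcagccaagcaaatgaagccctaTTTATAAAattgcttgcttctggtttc
Capitals mark letters found by a search of both strands. In Hamp they are GGCGCC, the core of a BMP-responsive element, at bases -109 to -104 from the start site, and TTCTTGGAA at -97 to -89, a match to the STAT palindrome TTCNNNGAA. In Cp they are GGTTTTTCCC at -146 to -137, a match on the minus strand to a loose form of the NF-kB site (GGGA and CC with 4 free bases between them), and the overlapping matches to the TATA box (TATAAA) on the plus strand at -25 to -20 and on the minus strand at -27 to -22. Of 32851 RefSeq windows of the 250 bases before a start site, 9.59% held GGCGCC, 7.02% held TTCNNNGAA, 17.6% held the loose NF-kB site and 12.4% held TATAAA, so these letters are common and describe the window only. RefSeq windows were found for 8 of the 10 genes. GGCGCC occurred in 2 of the 8, Hamp and Tfrc, and the STAT palindrome in 1 of them, Hamp.

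Several facts of the arrays bear on what follows. The 4 control arrays lay on one slide and the other 8 on another, so slide, age and treatment cannot be told apart in any comparison with control. On 4 arrays the sex-linked signals went against the labels, namely control replicates 3 and 4 and replicate 3 of both stimulated groups, and results without replicate 3 of the stimulated groups are given where a call changed. The share of probes above background ran from 45.4% to 50.8%. The 75th percentile of signal was 435 to 548 on LPS_IFNg_emodin arrays, against 763 to 942 on LPS_IFNg arrays and 747 to 971 on control arrays. On the log2 scale it was 0.77 lower with emodin than with LPS and IFNγ alone (8.96 ± 0.14 against 9.73 ± 0.12, SD, n = 4 each), and the exact permutation test (two-sided) gave p = 0.0286, the smallest that 4 against 4 allows. Signals of 8 spike-in probes, which read RNA added during labelling, differed by -0.01 between the same groups (p = 0.9714 in the same exact test). Levels below are log2 signal minus each array's 75th percentile. Scaled instead to the spike-ins, the median gene stood at -0.75 between LPS_IFNg_emodin and LPS_IFNg, and each change between these groups was lower by about that amount. Spike-in signal differed between slides, so that scaling was not used against control. In such bulk RNA, fewer cells of a type and less RNA per cell cannot be told apart.

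Marker genes were read for the cell types that a peritoneal culture could hold. Of 10 listed macrophage markers 9 had a probe, and all 9, among them Adgre1 and Csf1r, were well above background on every control and LPS_IFNg array. On LPS_IFNg_emodin arrays 8 of the 9 were, and Timd4 was not on any. The summed linear level of these markers, relative to the 75th percentile, was 520 to 535 on control, 348 to 408 on LPS_IFNg and 426 to 497 on LPS_IFNg_emodin arrays. Their mean log2 level was 2.79 to 2.92, 2.98 to 3.17 and 1.82 to 2.22 in the same order. The sum is thus lowest with LPS and IFNγ alone, and the mean is lowest with emodin. The series design text calls the samples PMN, a different leukocyte label. Neutrophil markers summed to 22.6 to 33.4, 21.4 to 26.0 and 26.0 to 32.2 in the same order. Of the 9 with a probe, 5, 3 and 4 were well above background on all arrays of the group. Elane (mean log2 level 4.05, 3.21 and 4.34), S100a8 (3.15, 3.76 and 2.91) and Camp (-3.43, -1.28 and -3.13) were so on all 12 arrays, and Ngp on none. Hepatocyte markers, relevant to Hamp and Cp, summed to 0.77 to 0.855, 0.465 to 0.679 and 0.567 to 0.752. Of these 10, Tat (-0.95, -2.16 and -1.39) and Cyp2e1 (-3.31, -3.64 and -3.31) were well above background on all 12 arrays and Serpina1a on all 4 control arrays. Alb, Ttr, Apoa1, Fgb and Hnf4a were on no array, and Apob and Ambp on 2 each. Lymphocyte markers summed to 3.05 to 3.77, 1.5 to 2.38 and 1.95 to 2.31, and erythroid markers to 0.148 to 0.188, 0.105 to 0.240 and 0.144 to 0.524. Mesothelial and fibroblast markers, 11 in all, were present and unequal: 17.0 to 73.3 on control, 70.0 to 134 on LPS_IFNg and 10.9 to 35.5 on LPS_IFNg_emodin arrays.

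Under LPS and IFNγ most of the 10 iron genes stood higher than in control, while the transferrin receptor stood lower. A gene was called at a limma adjusted p under 0.05, taken over all genes tested. Each adjusted p below is from that fit unless another setting or another probe of the gene is named. For other probes it was taken over the 17163 named probes kept by the background filter. In LPS_IFNg against control 7 of the 10 were called higher and 1 lower, where 69.0% of all genes were called, 34.1% of all genes higher and 34.9% lower. For LPS_IFNg_emodin against LPS_IFNg the counts were 6 higher and 3 lower, where 72.0% of all genes were called, 36.0% in each direction. Of those 6, only Hamp was called higher under spike-in scaling, with 4 genes then called lower, and 4 of the 6 (Fth1, Ftl1, Slc11a2 and Ireb2) had a change of opposite sign. LPS_IFNg_emodin against control gave 6 higher and 1 lower, where 78.0% of all genes were called, 39.8% higher and 38.2% lower. The median log2 change of the 10 was 0.64, 0.41 and 0.64 in the 3 comparisons, against -0.03, 0.01 and 0.02 for all genes. The arrays of the 2 groups compared did not overlap for 8, 10 and 7 of the 10 genes, where this held for 64.4%, 67.5% and 72.5% of all genes. The comparisons share arrays, so values are set side by side and the changes are not compared with each other.

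**Figure D1:**
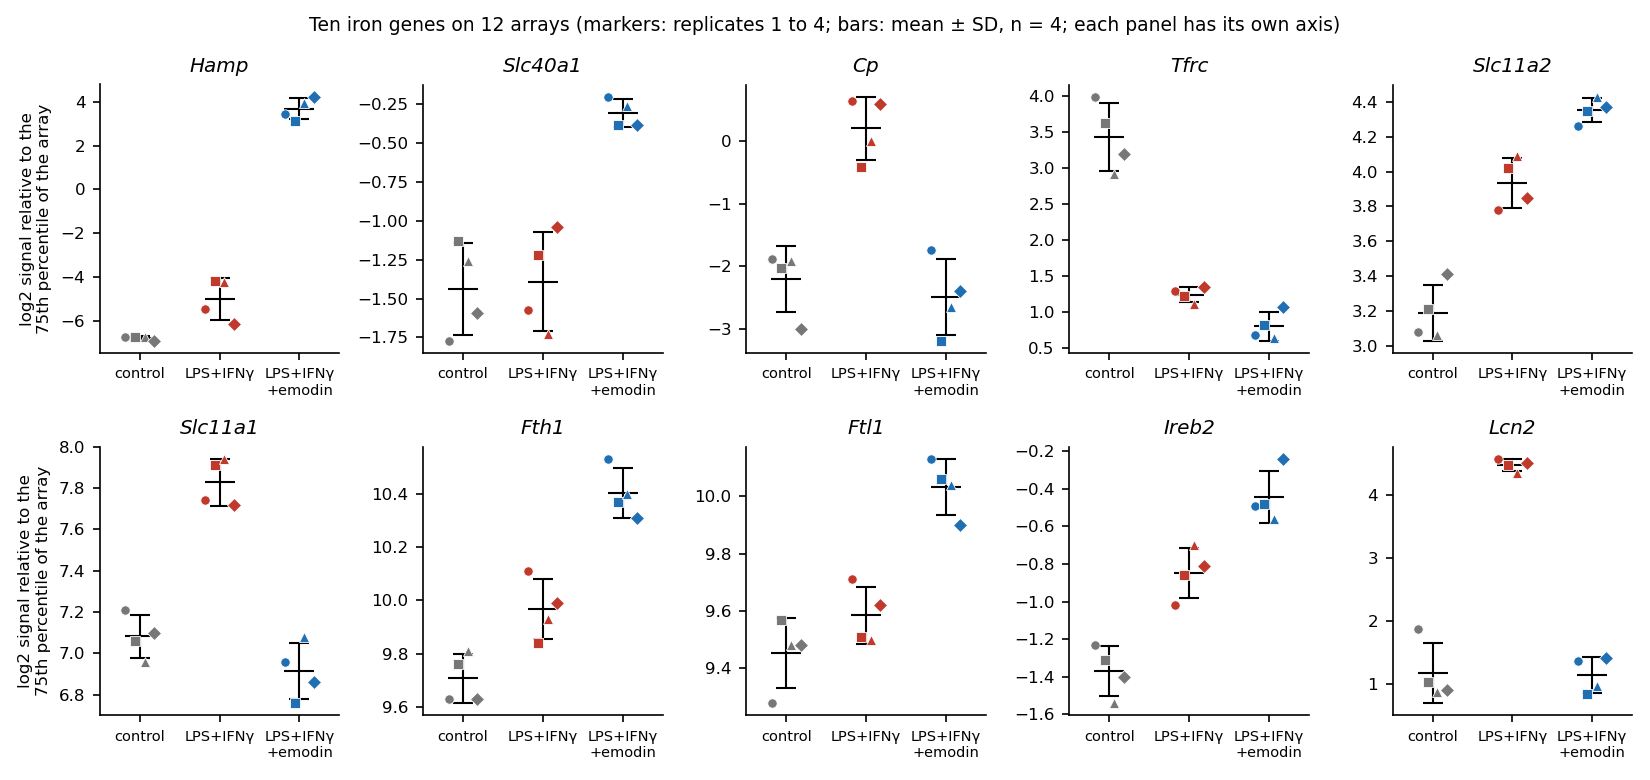
Each panel plots the log2 signal of 1 gene, relative to the 75th percentile of its array, for the 4 arrays of each group (markers) with mean ± SD, each panel with its own axis. Hamp lies between 3.13 and 4.23 on the emodin arrays and below -4 on the other 8, where it was not well above background.

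Hamp, the hepcidin gene, was well above background on the emodin arrays only. Its processed signal before scaling was 4752, 4793, 7725 and 9584 on LPS_IFNg_emodin arrays 1 to 4, and the probe was flagged well above background on each. The signal was 17.4, 52.5, 46.7 and 12.2 on the LPS_IFNg arrays and 8.33, 8.52, 7.07 and 8.21 on the control arrays, and on none of those 8 was the probe well above background. The 3 ranges do not overlap, and the lowest emodin array lies far above the highest of the others. On the scaled log2 axis Hamp was at 3.69 ± 0.49 with emodin, -4.99 ± 0.97 with LPS and IFNγ alone and -6.76 ± 0.08 in control (mean ± SD, n = 4 each). Hamp was at least 233-fold higher in LPS_IFNg_emodin than in LPS_IFNg (adjusted p = 5.74e-09) and at least 349-fold higher than in control (adjusted p = 3.48e-10). These are lower bounds under percentile scaling. Each dim array was set to its lowest signal among probes well above background, or to the probe's own signal where that was higher. The adjusted p are from the fit on the signals as read, without this bound. In that fit the log2 change against LPS_IFNg was 8.67, and with spike-in scaling it was 7.91 ± 0.39, so the bound would be lower there. Between LPS_IFNg and control no fold is given, since the gene was not well above background in either, although the fit counts it among the 7 called higher (adjusted p = 0.00172).

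The mouse genome holds a near-identical copy, Hamp2, with a probe of its own. None of the 12 arrays had that probe well above background, at -4.51 ± 0.13 with emodin, -5.54 ± 0.22 with LPS and IFNγ and -5.94 ± 0.35 in control, and was not tested. How far the Hamp probe also binds Hamp2 RNA was not tested. Hamp is chiefly a liver gene. Of the 10 hepatocyte markers, 2 (Tat and Cyp2e1) were well above background on all 4 emodin arrays, Serpina1a on 1 and the other 7 on none, and their summed level ran from 0.567 to 0.752 there, against 0.77 to 0.855 in control and 0.465 to 0.679 with LPS and IFNγ. Their part in the Hamp result was not tested.

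Genes of the pathways that regulate Hamp were read from lists chosen for their role. These lists hold inhibitors as well as inducers, so counts higher or lower are not counts of inducers. Counts by role, here and below, stand beside 69.0%, 72.0% and 78.0% of all genes called in the 3 comparisons. Of 10 genes on the interleukin 6 and STAT3 arm, 8 were tested. In LPS_IFNg against control 5 were called higher and 3 lower, in LPS_IFNg_emodin against LPS_IFNg 1 higher and 5 lower, and in LPS_IFNg_emodin against control 6 higher and 2 lower. Il6, the cytokine itself, was at 5.06, 5.19, 5.55 and 5.0 on the LPS_IFNg arrays and 4.37, 2.94, 3.36 and 3.59 on the emodin arrays, and was not well above background on the control arrays. The stimulated groups do not overlap, and Il6 lies lower with emodin: it was at least 997-fold higher in LPS_IFNg than in control, at least 321-fold higher in LPS_IFNg_emodin than in control, and -1.63 ± 0.41 between the stimulated groups (log2 change ± SE, n = 4 each, adjusted p = 0.00337). Socs3, a target and inhibitor of STAT3 signalling, was higher than in control by 5.75 ± 0.11 with LPS and IFNγ and by 5.49 ± 0.11 with emodin added. Il6ra, which encodes the interleukin 6 receptor, fell by 1.38 ± 0.17 with emodin. Il6st, the shared signalling receptor, was chosen after its values were seen: it was the gene of the arm called higher with emodin, by 0.96 ± 0.10 against LPS_IFNg. With spike-in scaling its change was 0.19 ± 0.2 and not called (adjusted p = 0.398).

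On the BMP and SMAD arm 14 of 21 genes were tested. In LPS_IFNg against control 6 were called higher and 3 lower, in LPS_IFNg_emodin against LPS_IFNg 3 higher and 7 lower, and in LPS_IFNg_emodin against control 5 higher and 8 lower. Hfe, which encodes a protein that regulates hepcidin, was at 2.39, 2.40, 2.09 and 2.20 in control and -0.86, -1.37, -1.21 and -0.83 with LPS and IFNγ. It fell by 3.34 ± 0.15 (adjusted p = 2.05e-09), and with emodin stood at 0.69, 0.23, 0.57 and 0.76, between the other groups and overlapping neither. Smad6, an inhibitory SMAD, was at least 3.16-fold higher in LPS_IFNg and at least 3.03-fold higher in LPS_IFNg_emodin than in control, where it was not well above background. Neo1, a receptor that binds hemojuvelin, was lower with emodin than with LPS and IFNγ by -1.95 ± 0.19, with 2 emodin arrays well above background. Eng, a BMP co-receptor, was lower by -2.16 ± 0.10 in the same comparison. Bmp6, the main BMP ligand in the liver, was well above background on 2 LPS_IFNg arrays and on no other array, and was not tested. Id1, a classical BMP target that was chosen after its values were seen, was at -2.09, -2.33, -1.63 and -2.39 with emodin, above all 4 LPS_IFNg arrays (-3.61 to -3.26), a difference of 1.31 ± 0.24 (adjusted p = 0.000342).

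Slc40a1, the exporter ferroportin, was higher with emodin after percentile scaling than in the other groups, which overlapped. It was at -1.77, -1.13, -1.26 and -1.59 in control, -1.57, -1.22, -1.73 and -1.04 with LPS and IFNγ, and -0.20, -0.38, -0.26 and -0.38 with emodin. All 4 emodin arrays lie above the other 8, while control and LPS_IFNg overlap. Before scaling, the signal was 378 to 422 with emodin, 257 to 414 with LPS and IFNγ and 256 to 412 in control, and each group overlapped the others. Against LPS_IFNg the change was 1.08 ± 0.17, or 2.12-fold (adjusted p = 9.4e-05), and against control 1.13 ± 0.17, or 2.19-fold (adjusted p = 4.97e-05). With spike-in scaling the change against LPS_IFNg was 0.32 ± 0.21 and no longer called (adjusted p = 0.176). LPS_IFNg against control gave 0.05 ± 0.17, with a 95% interval from -0.32 to 0.41 (adjusted p = 0.81).

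Cp, the ferroxidase ceruloplasmin that loads exported iron onto transferrin, was higher with LPS and IFNγ than in either other group. It was at -1.88, -2.03, -1.91 and -3.00 in control, 0.64, -0.42, 0.00 and 0.59 with LPS and IFNγ, and -1.74, -3.19, -2.65 and -2.39 with emodin. The LPS_IFNg arrays lie above the other 8, and control and emodin overlap. Cp rose by 2.41 ± 0.35 in LPS_IFNg against control, or 5.31-fold (adjusted p = 6.35e-05), and was 6.49-fold lower in LPS_IFNg_emodin than in LPS_IFNg (-2.70 ± 0.35, adjusted p = 2.33e-05). LPS_IFNg_emodin against control gave -0.29 ± 0.35, with a 95% interval from -1.05 to 0.47 (adjusted p = 0.46). A second Cp probe, for another transcript, was well above background on control replicate 3 alone and was not tested.

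The mesothelial and fibroblast markers were also unequal between the groups, and they followed Cp only in part. Their summed level on arrays 1 to 4 was 134, 70.0, 93.4 and 124 with LPS and IFNγ and 35.5, 10.9, 13.1 and 26.0 with emodin, which puts the arrays of each group in the same order as Cp does. In control it was 38.9, 39.2, 73.3 and 17.0, and array 4, lowest for Cp, was lowest here too. Their mean log2 level ran from -1.12 to 0.55 in control, -1.56 to -0.46 with LPS and IFNγ and -3.38 to -1.77 with emodin, so the sum and the mean place control and LPS_IFNg in opposite order, and emodin is lowest in both. The mean levels of Col1a1, Col1a2, Dcn and Wt1 were higher with LPS and IFNγ than in control, as for Cp. Those of Msln, Upk3b, Lrrn4, Krt8, Krt18, Krt19 and Col3a1 were lower. Of the 11 markers 10, 8 and 6 were well above background on all arrays of control, LPS_IFNg and LPS_IFNg_emodin. Their part in the Cp result was not tested. Heph, the membrane ferroxidase related to Cp, rose by 1.70 ± 0.42 in LPS_IFNg against control (adjusted p = 0.00341, 2 control arrays well above background) and was at least 3.05-fold lower in LPS_IFNg_emodin than in LPS_IFNg.

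**Figure D2:**
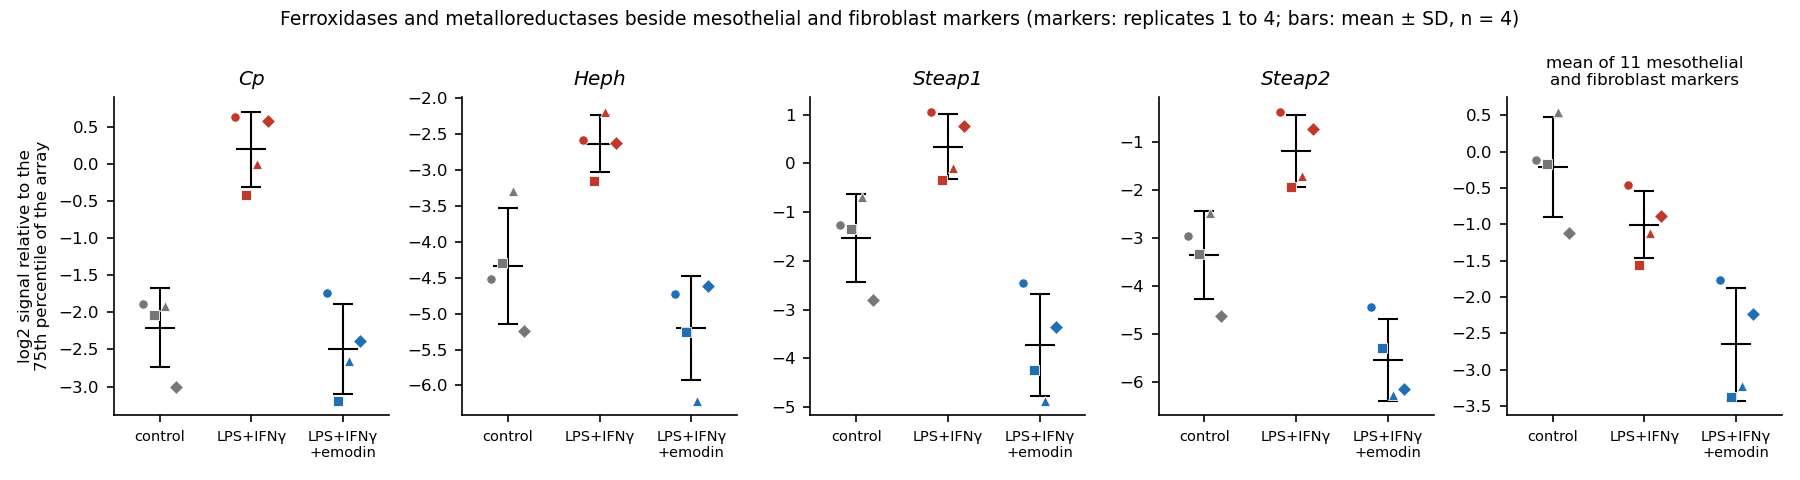
Log2 signal relative to the 75th percentile of each array is plotted for Cp, Heph, Steap1 and Steap2 and, at the right, for the mean of 11 mesothelial and fibroblast markers, for the 4 arrays of each group with mean ± SD. Emodin arrays are the lowest group for the marker mean (-3.38 to -1.77), and on them Heph and Steap2 were never well above background.

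Tfrc, the transferrin receptor through which cells take up iron, was lower in both stimulated groups. Its probe with the highest mean was at 3.99, 3.62, 2.92 and 3.2 in control, 1.29, 1.22, 1.11 and 1.35 with LPS and IFNγ, and 0.68, 0.83, 0.64 and 1.08 with emodin. The 3 groups do not overlap on this probe, and control is highest. Tfrc was 4.56-fold lower in LPS_IFNg (-2.19 ± 0.19, adjusted p = 9.52e-07) and 6.17-fold lower in LPS_IFNg_emodin (-2.62 ± 0.19, adjusted p = 1.11e-07) than in control. The other 2 probes gave -2.83 and -1.98 for LPS_IFNg and -3.02 and -1.83 for LPS_IFNg_emodin, each against control. Between the stimulated groups the change was -0.44 ± 0.19, just short of the threshold (adjusted p = 0.0619), and the other 2 probes gave -0.19 and 0.15 with overlapping arrays. Fitted on these 8 arrays alone, the -0.44 was called (adjusted p = 0.00634). Replicate numbers appear to pair the stimulated groups, and with the number as a block on the same 8 arrays it was called too (adjusted p = 0.00438), but not with the block on all 12. It was called as well with spike-in scaling, at -1.20 ± 0.21 (adjusted p = 0.000126), and without LPS_IFNg_emodin replicate 4 or control replicate 1 or 3 (-0.53 to -0.44).

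The other genes of iron uptake gave 3 called higher and 3 lower of 6 tested in LPS_IFNg against control, 2 higher and 3 lower in LPS_IFNg_emodin against LPS_IFNg, and 1 higher and 4 lower in LPS_IFNg_emodin against control. Trf, transferrin itself, was at 6.23, 5.95, 5.51 and 6.13 in control, 4.56, 4.32, 4.27 and 4.63 with LPS and IFNγ and 5.81, 5.64, 5.69 and 5.72 with emodin. It fell by 1.51 ± 0.14 in LPS_IFNg against control, was 1.27 ± 0.14 higher with emodin than without, and gave -0.24 ± 0.14 in LPS_IFNg_emodin against control (adjusted p = 0.14, and -0.44, adjusted p = 0.0181, on its other probe). That last value was called in other settings: -0.39 without control replicate 3 (adjusted p = 0.0059), -0.38 with the female-labelled controls only, -0.65 with quantile scaling (adjusted p = 0.00288), -0.66 in the deposited value table, -0.44 with normexp and with the percentile over detected probes, and -0.34 with the mean of probes. Slc39a14, a carrier of iron not bound to transferrin, was higher by 0.99 ± 0.10 with LPS and IFNγ than in control and lower by -0.73 ± 0.10 with emodin than with LPS and IFNγ alone. Steap1 and Steap2 encode metalloreductases of the family that reduces iron after uptake. Steap1 changed by 1.88 ± 0.56 in LPS_IFNg against control and by -4.08 ± 0.56 in LPS_IFNg_emodin against LPS_IFNg. Steap2 changed by 2.17 ± 0.53 in the first of these and was at least 8.37-fold lower in the other. Both were lowest with emodin, as were the mesothelial and fibroblast markers given beside Cp, and the part of those cells was not tested.

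Slc11a2, the divalent metal transporter DMT1 that moves iron out of endosomes, was higher with LPS and IFNγ and higher again with emodin. It was at 3.08, 3.21, 3.06 and 3.41 in control, 3.78, 4.02, 4.09 and 3.85 with LPS and IFNγ, and 4.26, 4.35, 4.43 and 4.37 with emodin. The 3 groups do not overlap. The change was 0.75 ± 0.09 for LPS_IFNg against control (adjusted p = 2.24e-05) and 1.17 ± 0.09 for LPS_IFNg_emodin against control (adjusted p = 2.64e-07). With emodin against LPS_IFNg it was 0.42 ± 0.09 (adjusted p = 0.00178), but -0.34 ± 0.18 with spike-in scaling (adjusted p = 0.0971) and 0.23 with normexp background correction (adjusted p = 0.0602). The other probe of the gene gave 0.58, 1.89 and 1.30 for these comparisons.

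Slc11a1, formerly Nramp1, pumps divalent metals out of the phagosome and is known for resistance to intracellular bacteria. Its level was 7.21, 7.06, 6.96 and 7.10 in control, 7.74, 7.91, 7.94 and 7.72 with LPS and IFNγ, and 6.96, 6.76, 7.08 and 6.86 with emodin. The LPS_IFNg arrays lie above the other 8, and control and emodin overlap. It rose by 0.74 ± 0.09 in LPS_IFNg against control (1.67-fold, adjusted p = 1.25e-05) and was 1.88-fold lower in LPS_IFNg_emodin than in LPS_IFNg (-0.91 ± 0.09, adjusted p = 2.17e-06). LPS_IFNg_emodin against control gave -0.17 ± 0.09 (adjusted p = 0.104), which became a called fall of -0.22 without LPS_IFNg_emodin replicate 3 (adjusted p = 0.0408), of -0.22 without replicate 3 of both stimulated groups (adjusted p = 0.0424) and of -0.71 with quantile scaling (adjusted p = 8.32e-05).

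Lcn2 encodes lipocalin 2, a secreted protein that captures bacterial iron carriers (siderophores). It was at 1.87, 1.03, 0.87 and 0.90 in control, 4.58, 4.49, 4.35 and 4.51 with LPS and IFNγ, and 1.36, 0.83, 0.97 and 1.41 with emodin. The LPS_IFNg arrays lie far above the other 8, which overlap. Lcn2 was 9.98-fold higher in LPS_IFNg than in control (3.32 ± 0.21, adjusted p = 4.35e-08) and 10.1-fold lower in LPS_IFNg_emodin than in LPS_IFNg (-3.34 ± 0.21, adjusted p = 5.68e-08). The change of LPS_IFNg_emodin against control was -0.02 ± 0.21, with a 95% interval from -0.48 to 0.43 (adjusted p = 0.919). Lcn2 is also a granule gene of neutrophils. Of that list, Camp (-3.43 ± 0.08 in control, -1.28 ± 0.20 with LPS and IFNγ and -3.13 ± 0.38 with emodin) and S100a8 (3.15 ± 0.36, 3.76 ± 0.20 and 2.91 ± 0.23) were likewise highest with LPS and IFNγ, while Elane was lowest there (4.05 ± 0.38, 3.21 ± 0.34 and 4.34 ± 0.11). The other 6 were well above background on no LPS_IFNg array: Ltf, S100a9, Cxcr2, Retnlg, Mpo and Ngp. Ltf (-1.3, -6.09 and -3.97 in the same order), S100a9 (-3.54, -5.98 and -3.51), Cxcr2 (-4.1, -5.85 and -5.59) and Retnlg (-3.48, -5.79 and -6.08) were lower there than in control. The summed level of the list was 21.4 to 26.0 on the LPS_IFNg arrays, 22.6 to 33.4 in control and 26.0 to 32.2 with emodin, and the part of neutrophils in the Lcn2 result was not tested.

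Of 3 tested genes related to siderophores and phagosomal iron, 1 was called higher and 2 lower in LPS_IFNg against control and the same numbers in LPS_IFNg_emodin against LPS_IFNg, and all 3 were lower in LPS_IFNg_emodin against control. Bdh2, an enzyme of the mammalian siderophore pathway, was higher by 0.97 ± 0.20 with LPS and IFNγ and lower by -2.54 ± 0.20 with emodin than without. Ltf, lactoferrin, was at least 7.47-fold lower in LPS_IFNg than in control and at least 1.17-fold higher in LPS_IFNg_emodin than in LPS_IFNg, with 2 emodin arrays and no LPS_IFNg array well above background. These bounds hold for percentile scaling only. Without a bound, the log2 change of Ltf between the stimulated groups was 2.12 with percentile scaling and 1.35 ± 0.27 with spike-in scaling. Slc22a17, the lipocalin 2 receptor, fell by 1.80 ± 0.16 in LPS_IFNg_emodin against control. Its change was -0.9 ± 0.16 both in LPS_IFNg against control and in LPS_IFNg_emodin against LPS_IFNg.

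**Figure D3:**
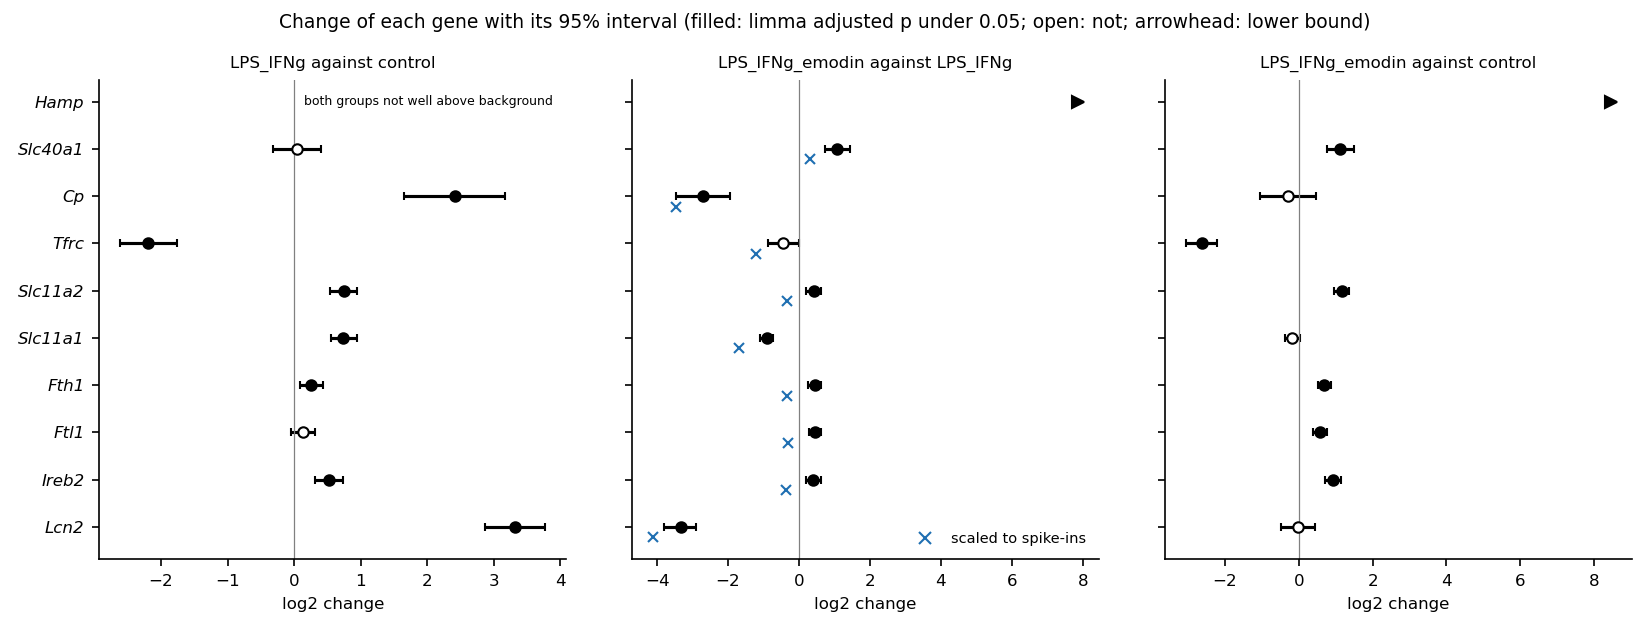
Points give the log2 change of each of the 10 genes with its 95% interval in 3 comparisons, filled where called, with arrowheads for the lower bounds of Hamp and crosses for spike-in scaling. Lcn2 and Cp lie on opposite sides of 0 in the first 2 panels, and Fth1, Ftl1, Slc11a2 and Ireb2 lie above 0 with percentile scaling and below 0 with spike-in scaling in the middle panel.

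Ferritin signal lay close to the scanner's saturation value, and its small changes turned on the scaling. Fth1, the heavy chain that oxidises iron for storage, was at 9.63, 9.76, 9.81 and 9.63 in control, 10.11, 9.84, 9.93 and 9.99 with LPS and IFNγ, and 10.53, 10.37, 10.40 and 10.31 with emodin. The groups do not overlap after scaling. The change was 0.26 ± 0.08 for LPS_IFNg against control (adjusted p = 0.0116) but 0.13, not called, with quantile scaling (adjusted p = 0.0551). For LPS_IFNg_emodin against LPS_IFNg it was 0.44 ± 0.08 (adjusted p = 0.000364), but -0.14 with quantile scaling (adjusted p = 0.0311) and -0.33 with spike-in scaling (adjusted p = 0.0819). Against control the emodin change was 0.69 ± 0.08 (adjusted p = 5.37e-06), but -0.02 with quantile scaling (adjusted p = 0.767). Before scaling, Fth1 signal was 645595 to 725724 with emodin, 839620 to 866916 with LPS and IFNγ and 672485 to 783015 in control, so that the emodin arrays lay below the LPS_IFNg arrays. Values above the scanner's saturation value of 778946 occurred on all 4 LPS_IFNg arrays and on control replicate 2, and 1 array, LPS_IFNg replicate 2, carried the saturation flag.

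Ftl1, the light chain, has 2 kept probes that disagree. The probe with the higher mean was at 9.28, 9.57, 9.48 and 9.48 in control, 9.71, 9.51, 9.50 and 9.62 with LPS and IFNγ, and 10.13, 10.06, 10.04 and 9.90 with emodin, with overlap between control and LPS_IFNg only. LPS_IFNg against control was 0.13 ± 0.08 on it (adjusted p = 0.173) and -0.35 ± 0.09 on the other probe, called lower (adjusted p = 0.00368). LPS_IFNg_emodin against LPS_IFNg was 0.45 ± 0.08 (adjusted p = 0.000406), but 0.01 with quantile and -0.32 with spike-in scaling, and 0.94 ± 0.09 on the other probe. LPS_IFNg_emodin against control was 0.58 ± 0.08 (adjusted p = 3.88e-05), but -0.11 with quantile scaling. Ncoa4, the receptor that sends ferritin to the lysosome, was the largest faller after Pcbp3 among the ferritin-related genes in LPS_IFNg against control, by -0.75 ± 0.11 (adjusted p = 5.16e-05). Of 5 tested genes of ferritin storage and turnover, 1 was called higher and 3 lower in LPS_IFNg against control, 3 higher and 2 lower in LPS_IFNg_emodin against LPS_IFNg, and 1 higher and 2 lower in LPS_IFNg_emodin against control. Among them are iron chaperones: Pcbp3 fell by 2.47 ± 0.16 in LPS_IFNg_emodin against control, Pcbp4 changed by -0.62 ± 0.13 in LPS_IFNg_emodin against LPS_IFNg, and Pcbp2 changed by 0.54 ± 0.10 against control on 1 probe (0.17, not called, with quantile scaling) and by -0.82 ± 0.10 on the other.

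**Figure D4:**
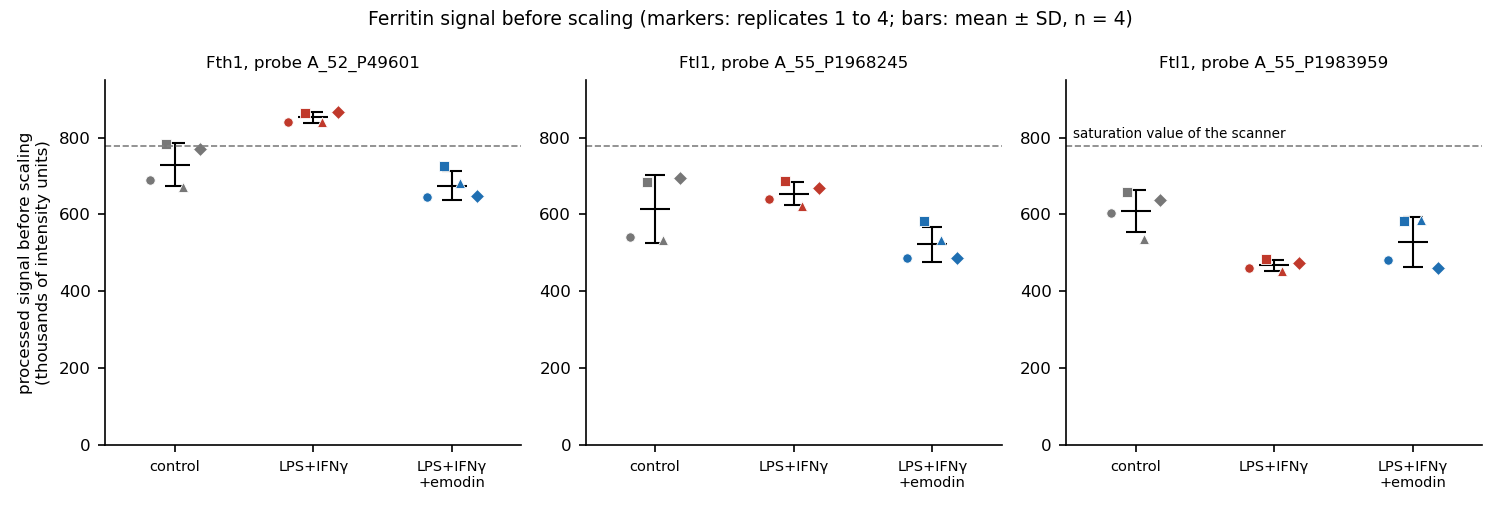
Processed signal before scaling is plotted on a linear axis for the Fth1 probe and both Ftl1 probes on the 4 arrays of each group with mean ± SD, and the dashed line is the scanner's saturation value. Fth1 lies above the line on all 4 LPS_IFNg arrays, and its emodin arrays lie below its LPS_IFNg arrays, the opposite of their order after percentile scaling and the same as after quantile or spike-in scaling.

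Ireb2 encodes iron regulatory protein 2, which binds the ferritin and transferrin receptor messages when iron is scarce. It was at -1.23, -1.31, -1.54 and -1.40 in control, -1.02, -0.86, -0.70 and -0.81 with LPS and IFNγ, and -0.49, -0.48, -0.56 and -0.24 with emodin. The 3 groups do not overlap. The change was 0.53 ± 0.10 for LPS_IFNg against control (adjusted p = 0.000473), 0.93 ± 0.10 for LPS_IFNg_emodin against control (adjusted p = 2.81e-06) and 0.40 ± 0.10 for LPS_IFNg_emodin against LPS_IFNg (adjusted p = 0.00298), the last being -0.36 ± 0.20 with spike-in scaling (adjusted p = 0.113). Aco1, iron regulatory protein 1, fell by 0.46 ± 0.15 in LPS_IFNg against control (adjusted p = 0.017). It was not called with normexp background correction (-0.12, adjusted p = 0.297), with the female-labelled controls only (-0.47, adjusted p = 0.064) or without LPS_IFNg replicate 4 (-0.37, adjusted p = 0.0544). Fbxl5, part of the ubiquitin ligase that removes iron regulatory protein 2, was higher by 0.89 ± 0.11 with LPS and IFNγ and by 1.21 ± 0.11 with emodin, both against control. Between the stimulated groups Fbxl5 changed by 0.32 ± 0.11 (adjusted p = 0.026), but by -0.45 with spike-in scaling (adjusted p = 0.032). It was not called without LPS_IFNg_emodin replicate 1 (0.28) or 4 (0.29) or LPS_IFNg replicate 3 (0.28), without replicate 3 of both stimulated groups (0.29, adjusted p = 0.0875) or with the percentile over detected probes (0.24).

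Beyond the 10 genes, 105 others in 10 roles were listed and 86 tested. In LPS_IFNg against control 28 were called higher and 37 lower, with a median log2 change of -0.10. For LPS_IFNg_emodin against LPS_IFNg it was 22 higher and 41 lower (median -0.20), and with spike-in scaling 6 higher and 68 lower. LPS_IFNg_emodin against control gave 25 higher and 45 lower (median -0.29). The shares of all genes called higher were 34.1%, 36.0% and 39.8% in the 3 comparisons, and those called lower 34.9%, 36.0% and 38.2%. With spike-in scaling 932 of all genes were called higher and 8687 lower in LPS_IFNg_emodin against LPS_IFNg. The haem genes held some of the larger changes. Hmox1, the enzyme that frees iron from haem, was at 6.08, 5.90, 5.79 and 5.71 in control, 7.53, 7.72, 7.82 and 7.50 with LPS and IFNγ, and 8.94, 8.67, 9.02 and 8.68 with emodin. The 3 groups do not overlap, and Hmox1 was higher by 1.77 ± 0.11 in LPS_IFNg against control and by 1.18 ± 0.11 in LPS_IFNg_emodin against LPS_IFNg (adjusted p = 2e-06), where it was also called higher with spike-in scaling. The haem exporter Abcg2 changed by -2.12 ± 0.22 and -1.79 ± 0.22 in these comparisons, and Slc46a1, a haem and folate carrier, by -2.08 ± 0.22 and -1.98 ± 0.22. Slc46a1 changed by -4.06 ± 0.22 in LPS_IFNg_emodin against control. Hpx, which encodes the haem-binding hemopexin, was higher by 2.12 ± 0.26 in LPS_IFNg against control, where it was well above background on 2 arrays.

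**Figure D5:**
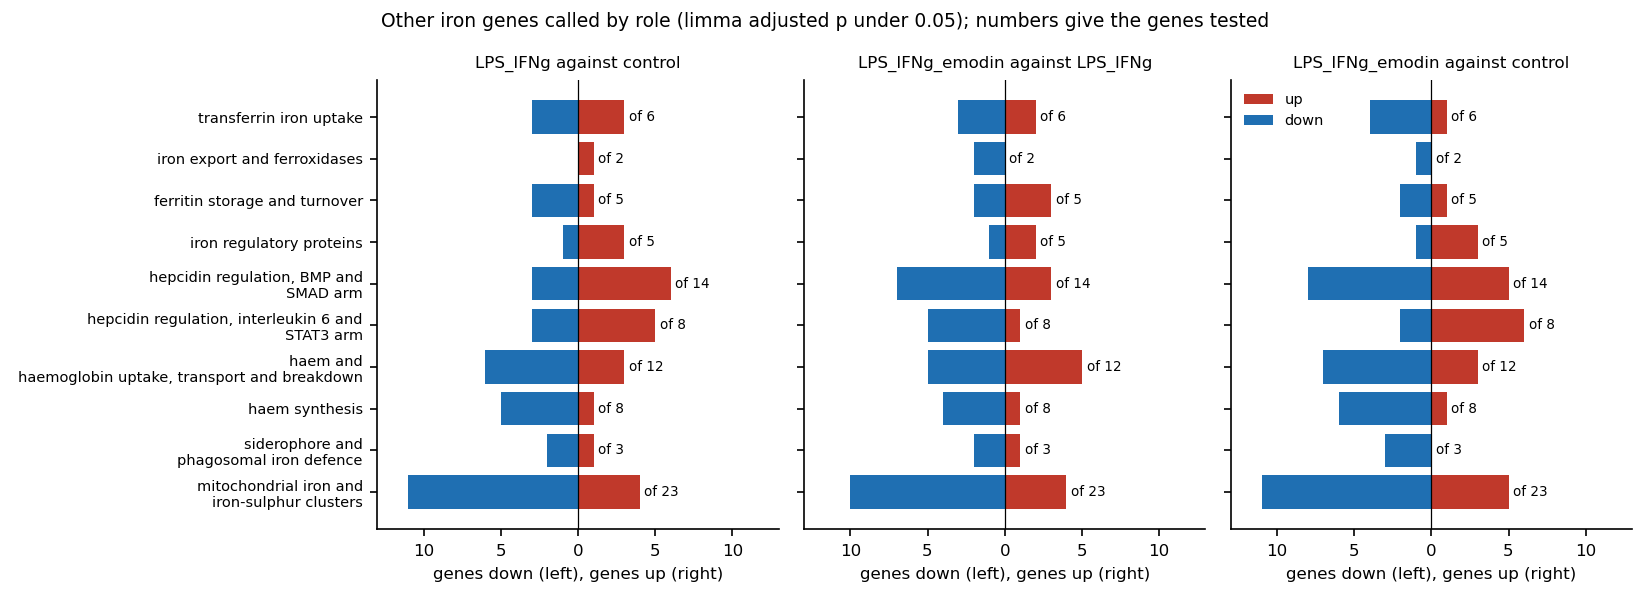
Bars count the 86 tested iron genes outside the 10, by role, called lower (left) or higher (right) at a limma adjusted p under 0.05 with percentile scaling in each comparison, beside the number tested. The mitochondrial group, with 23 genes, had 11, 10 and 11 called lower and 4, 4 and 5 called higher, and the counts of the middle panel shift to 6 higher and 68 lower in all with spike-in scaling.

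In haem synthesis 1 of 8 genes was called higher in each comparison, and 5, 4 and 6 lower. Alas1, the rate-limiting enzyme, was higher by 1.10 ± 0.11 in LPS_IFNg against control. With emodin against LPS_IFNg, Alad changed by -0.83 ± 0.10 and Cpox by -1.09 ± 0.10, and against control Uros changed by -1.19 ± 0.08, all 3 being enzymes of the pathway. Among mitochondrial genes, Slc25a37, the iron importer mitoferrin 1, was higher by 3.03 ± 0.11 in LPS_IFNg and by 1.89 ± 0.11 in LPS_IFNg_emodin, both against control. Hscb, a co-chaperone of iron-sulphur cluster assembly, changed by -1.19 ± 0.11 in LPS_IFNg against control and by 1.63 ± 0.11 in LPS_IFNg_emodin against LPS_IFNg. Abcb10, a mitochondrial transporter needed for haem synthesis, was lower in LPS_IFNg_emodin by -1.56 ± 0.09 against LPS_IFNg and by -2.58 ± 0.09 against control. Of the remaining genes, the copper exporter Atp7a changed by -0.58 ± 0.08 in LPS_IFNg_emodin against LPS_IFNg, and Cdc42bpa, whose message carries an iron-responsive element, was at least 5.41-fold lower there.

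For 4 of the genes, those most alike over the 12 arrays were sought among all genes tested, by the Pearson correlation of scaled log2 signal. This describes the arrays, which share groups, slides and scaling. Nearest to Hamp were Tnip2 (r = 0.9967), Anapc7 (0.9948) and Ccnl2 (0.9945), whose own levels changed far less, Tnip2 being at 3.13 ± 0.01 in control, 3.29 ± 0.07 with LPS and IFNγ and 4.28 ± 0.03 with emodin. Nearest to Slc40a1 were Rtraf (0.9632), Tial1 (0.9596) and Zfp691 (0.9537). Tfrc was most like Cmss1 (0.9914), Iars2 (0.9897) and Tmem97 (0.9895). Among the genes most like Lcn2 were Flt1 (0.9942) and Gnb4 (0.9927), with Flt1 at -3.46 ± 0.55, 2.35 ± 0.13 and -3.52 ± 0.79 in the 3 groups.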

How the data were processed

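RNA was labelled with Cy3 from 200 ng per sample and read on 12 Agilent arrays. Per the submitters' processing notes, Agilent Feature Extraction 10.7.3.1 made the deposited scanner files. Their processed signal is an intensity after background subtraction, with no step between arrays per the file headers. The background, saturation, control and outlier flags are those deposited by the authors. The deposited value table holds log2 values. These matched quantile-normalized processed signal centred on each probe's median (r of 0.9989 or more, column medians -0.0314 to 0.0416), so scale, centring and direction are known. In it, the columns labelled control 1, 3 and 4 hold the values of scanner files 4, 1 and 3 of that group, and it served as an alternative.

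Control spots and outlier spots (78 to 415 per array) were left out. Spots of a probe were averaged, log2 was taken and each array's 75th percentile subtracted. Probes flagged well above background throughout 1 group or more were kept, 27380 of 55681. Probes were named through unversioned accessions in a RefSeq table (GRCm38.p6), used for names and promoter windows only, since the array design cites mm9: 27503 had 1 symbol, 0 several and 28178 none. The kept probe with the highest mean stood for each of 13166 genes, 3353 of which had several kept probes. With limma 3.58.1 (R 4.3.3), 3 group means were estimated from all 12 arrays (lmFit, contrasts, eBayes, 9 residual and 2.49 prior degrees of freedom). P-values are two-sided, with Benjamini-Hochberg adjustment over all genes, or over all kept named probes for the other probes of a gene. Errors of changes are standard errors. The number of arrays limits the precision.

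The 10 genes and all lists were chosen with earlier results of these data known. Other iron genes were named by rule: up to 2 called genes with the largest change per role and comparison, and Il6, Bmp6, Hmox1, Aco1, Fbxl5, Trf and Slc39a14 in any case. The 3 genes nearest to each of Hamp, Slc40a1, Tfrc and Lcn2 were named by correlation. Some results these rules select are not reported here. Deviations from group means of same-numbered LPS_IFNg and LPS_IFNg_emodin arrays correlated at 0.2287, 0.2833, 0.1622 and 0.1498, against -0.2434 to 0.0472 for different numbers. The numbers thus appear to pair these groups, which was not tested. It rests on the data, since the labels do not say what a number marks. Between LPS_IFNg and control, arrays of different numbers reached 0.3146. Numbers did not pair either with control. Alternatives covered background correction, scaling, filters, probe choice, arrays in the fit, the replicate block and leaving out each array. The planned normexp correction used the median in place of the mean foreground signal, with an offset of 50. The code was tested on simulated data.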

Additional observations from a re-analysis of the deposited data

Results flagged for a closer look

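In 135 sets of 4 arrays (45 named genes in 3 groups), 7 had an array standing further from the rest than Dixon's 95% criterion allows, and chance alone gives about 1 in 20. Among the 10 iron genes, control replicate 1 was the highest for Lcn2 at 1.87, next to 1.03. Control replicate 4 was the lowest for Cp at -3.00, next to -2.03, and is also the control array with the lowest mesothelial and fibroblast markers. The same array was lowest for Hamp at -6.89, where the probe was not well above background. Among the other iron genes, Alas1 was lowest on LPS_IFNg replicate 3 at 8.65, next to 8.72, and Cdc42bpa was highest on LPS_IFNg replicate 4 at -1.65, next to -1.84. On the emodin arrays, Bdh2 was highest on replicate 3 at -1.44, next to -2.18, and Ltf was highest on replicate 4 at -3.36, next to -4.15.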

How the results depend on the processing

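Hamp kept its direction and call in LPS_IFNg_emodin against LPS_IFNg and against control in each alternative that gave it a value; the filter requiring detection on all 12 arrays removed it. The scaling mattered most. Spike-in scaling of LPS_IFNg_emodin against LPS_IFNg, where the median gene stood at -0.75, gave 1 of the 10 genes, 6 other iron genes and 932 of all genes called higher, and 68 other iron genes and 8687 of all genes called lower. It moved Slc40a1 to 0.32, Tfrc to -1.20, Fth1 to -0.33, Ftl1 to -0.32, Slc11a2 to -0.34, Ireb2 to -0.36 and Fbxl5 to -0.45. Quantile scaling, which moved the median gene to -0.13, -0.04 and -0.14 in the 3 comparisons, and the deposited value table gave the same values for Fth1 (0.13, -0.14 and -0.02) and for Ftl1 with emodin (0.01 against LPS_IFNg, -0.11 against control). The percentile over detected probes (median gene at -0.16, -0.06 and -0.18) gave 0.13 for Fth1 in LPS_IFNg against control. Tfrc between the stimulated groups was called on the 8 arrays of the 2 groups (-0.44, adjusted p = 0.00634), with the replicate block on them (-0.44), with female-labelled controls only (-0.44), with the filter on all 12 arrays (-0.44), with normexp (-0.44) and with the detected percentile (-0.51); leaving out 1 array gave -0.53 to -0.38, called without LPS_IFNg_emodin replicate 4 or control replicate 1 or 3. Slc11a1 in LPS_IFNg_emodin against control was called with the value table (-0.72), quantile scaling (-0.71), the detected percentile (-0.36), normexp (-0.35) and without replicate 3 of both stimulated groups (-0.22, an alternative chosen after seeing the data); leaving out 1 array gave -0.22 to -0.12. In these settings 2 of the 10 were called lower there, against 1 otherwise, and 1 to 2 when 1 array was left out. Normexp moved Slc11a2 with emodin against LPS_IFNg to 0.23 and Aco1 in LPS_IFNg_emodin against control from -0.25 to 0.31. With no filter 7890 genes were called higher in LPS_IFNg and 8394 in LPS_IFNg_emodin, each against control. The replicate block on 8 arrays left Fth1 in LPS_IFNg against control at 0.26 but not called (adjusted p = 0.0644), where the groups share no pairing; set against the same 8 arrays without it, the block changed no other call of a named gene, and on all 12 arrays it changed none. Slc39a14 in LPS_IFNg_emodin against control (0.26) was not called on the 8 arrays without the block (adjusted p = 0.0516) or with it (adjusted p = 0.06). Other probes reversed Ftl1 in LPS_IFNg against control (-0.35), and the mean of probes gave -0.14 for Pcbp2. Beyond what these settings are built to change, the cause was not tested. Of 769 values of the 10 genes under alternatives, 734 kept direction and call.

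Signal near background limits Hamp outside the emodin arrays, and saturation limits Fth1 with LPS and IFNγ. Comparisons with control also compare slides and ages.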
